A study of Homo sapiens with 3 samples.

Results

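The insulin-like growth factor (IGF) axis was described here by 9 genes measured in HSC-3 cells, an established human line of oral (tongue) squamous carcinoma. They were IGFL1, the binding proteins IGFBP2 to IGFBP7, and the receptors IGF1R and IGF2R. Together they had 9 probes, 1 for each gene, among 17614 named genes. IGFL1 was chosen by its measured signal, which exceeded the blank spots on no array but that of shDKK3, and the other 8 genes were taken as its context. The values of IGFL1 are therefore a description, and so is every count that includes it.

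Total RNA was measured on 1-colour arrays in 3 conditions, with 1 array each and no replicates. The parental line was left without a vector. The shScr line expressed a non-effective scrambled short hairpin RNA (shRNA), and the shDKK3 line an shRNA that targets DKK3, which encodes a dickkopf-related secreted protein. Both constructs were lentiviral, were packaged in HEK293 cells, were described with GFP vectors, and were kept under puromycin, which the parental cells did not receive. All 3 cultures were grown in DMEM with serum. Whether the shRNA lines were clones or mixed populations is not given in the sources used here. The description of the shDKK3 sample speaks of DKK3 transfection, while its title and its shRNA label name the shRNA. Every difference below is one between arrays, and 1 array per condition limits the precision of all of them.

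IGF1 and IGF2 are secreted peptides that signal through the tyrosine kinase receptor IGF1R. IGF2R, the cation-independent mannose 6-phosphate receptor, takes up IGF2 for breakdown and carries enzymes to lysosomes. The IGFBP proteins bind the ligands in the extracellular space and so set how much reaches the receptors, and proteases release the ligands by cutting the binding proteins. The IGFL proteins are small secreted relatives in sequence, found mainly in skin, and IGFL1 binds a receptor of its own, IGFLR1.

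Levels are given as the authors' deposited intensity, a linear scale on which the median of each array is 25. Differences are given as log2 differences after background correction and quantile normalisation. A probe counted as above the blanks where its spot was brighter than a limit set 2 SD over the average of 2680 blank spots, and a difference was counted from 2-fold upwards. Of the gene probes, between 78.5% and 81.3% lay above the blanks on the 3 arrays. DKK3, the targeted gene, had deposited values of 309 (parental), 226 (shScr) and 170 (shDKK3), with log2 differences of -0.39 to shScr and -0.71 to parental. Between the controls, genes of like brightness had a spread of 0.39, which the difference to shScr did not exceed. Of the squamous epithelial markers, all 6 with a probe (KRT5, KRT14, KRT17, TP63, CDH1 and EPCAM) were above the blanks on every array. Their summed deposited values were 11081, 13601 and 41109 in the same order, and the keratins KRT5, KRT14 and KRT17 made up most of each sum. EPCAM ran the other way, at 1927, 1671 and 648, and TP63 was at 18.1, 24.8 and 21.5. Markers of blood cells and endothelium, 2 each, had no deposited value above 7.9, and of 4 fibroblast markers DCN alone exceeded 3.2, at 83.5, 72.9 and 92.0. The part of these differences in the IGF axis values was not tested.

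IGFL1 and its neighbour IGFL2 were the 2 genes of the IGFL family with signal on the shDKK3 array alone. The 250 bases before the start of 3 IGFL genes are shown because the genes lie in 1 cluster on chromosome 19 and differed in this respect. They are from RefSeq (GRCh38.p14), read 5′ to 3′ along each gene, and lie in the region upstream of the first exon. IGFL1 lies at chr19:46229492-46229741 (plus strand), IGFL2 at chr19:46147988-46148237 (plus strand) and the second listed start of IGFL4 at chr19:46041003-46041252 (minus strand). Capitals mark matches to any of the 3 motifs described next.
IGFL1: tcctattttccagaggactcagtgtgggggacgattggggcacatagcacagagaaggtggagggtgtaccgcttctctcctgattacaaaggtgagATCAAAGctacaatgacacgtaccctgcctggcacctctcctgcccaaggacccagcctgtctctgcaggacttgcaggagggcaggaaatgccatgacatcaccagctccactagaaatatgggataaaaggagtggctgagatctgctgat
IGFL2: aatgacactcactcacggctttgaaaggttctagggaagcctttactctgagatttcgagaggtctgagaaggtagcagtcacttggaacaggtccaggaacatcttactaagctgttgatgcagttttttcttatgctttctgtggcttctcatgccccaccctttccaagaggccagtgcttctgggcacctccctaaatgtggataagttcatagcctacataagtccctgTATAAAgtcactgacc
IGFL4: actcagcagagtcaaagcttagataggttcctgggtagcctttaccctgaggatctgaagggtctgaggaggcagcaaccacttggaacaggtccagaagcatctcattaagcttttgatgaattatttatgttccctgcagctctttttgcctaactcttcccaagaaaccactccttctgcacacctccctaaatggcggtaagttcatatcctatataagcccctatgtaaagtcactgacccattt

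The motifs, chosen with the sequences in view, were searched on both strands. They were the TATA box written TATAAA, the AP-1 site written TGANTCA, and the TCF/LEF site of Wnt signalling written ATCAAAG, and none of them overlapped. The IGFL1 window held 1 TCF/LEF match, 153 to 147 bases before the start, a motif found in 2.26% of 35116 promoter windows. The IGFL2 window held 1 TATA box, 16 to 11 bases before the start, found in 10.7% of windows. The IGFL3 window held 1 AP-1 match, found in 6.57% of windows. The window of the first listed IGFL4 start held 1 TATA box on the opposite strand, 206 to 201 bases before the start, and that of the second held none of the 3. The windows of IGFBP3 and IGFBP6 held none of the 3. After global alignment the IGFL2 and second IGFL4 windows were 72.9% identical, while the IGFL2 and first IGFL4 windows were 42.3% identical. The IGFL1 and IGFL2 windows were 44.4% identical, near the 44.3% of the IGFL1 and IGFBP6 windows, which belong to unrelated genes. A match is a string of letters and does not show that a factor binds there.

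The IGFL1 spot read 52.8 (parental), 57.8 (shScr) and 103.6 (shDKK3). The limits above the blanks were 54.3, 59.1 and 49.2. IGFL1 was thus not well above background on either control, by a margin of 1.49 and 1.33 units, and stood 54.4 units above the limit on the shDKK3 array. Of the 2680 blank spots, 82 were at least as bright as IGFL1 in the parental sample, 195 in shScr and 0 in shDKK3. The brightest of the 96 blanks in the same block of the shDKK3 array read 50.1. These blanks do not show whether the single IGFL1 spot was sound, which was not tested. The deposited values were 2.0, 1.2 and 54.5 in the same order. IGFL1 was at least 18.2-fold higher on the shDKK3 array than on both controls in the deposited values. After normalisation, where an added offset of 50 shrinks the folds of dim probes, it was at least 2.33-fold higher. Both bounds set the bright array against the lowest signal that counted as above the blanks on the controls.

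Signal over the blanks in shDKK3 and in neither control was seen for 338 of 17614 genes (1.92%). IGFL1 had the largest normalised bound of them, and the next was 1.46-fold for ZNF14, a zinc finger gene. The median bound was below 1, so for most of these genes no fold could be given. IGFL1 kept this pattern with a limit of 3 SD and with the 99th percentile of the blanks, where 398 and 91 genes had it. IGFL1 was chosen for this pattern, and its shDKK3 spot lay 49.0 SD above the blank mean. The other limits were therefore no test of the pattern.

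IGFL2 was measured by 2 probes, and both gave the same pattern as IGFL1 at a lower level. The first read 51.5 (parental), 56.8 (shScr) and 61.0 (shDKK3), with 2 blanks at least as bright on the last array. The second read 50.1, 55.0 and 57.9, again with 2 such blanks. On the control arrays both probes were within the blanks, and on the shDKK3 array they were 12.2 and 9.50 blank SD above the mean. In the deposited values the bounds were at least 4.53-fold and at least 3.53-fold. After normalisation they were at least 1.26-fold and at least 1.18-fold.

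The other IGFL genes did not share this pattern. IGFL3 read 52.3, 56.4 and 48.9 and was not above the blanks on any array. One IGFL4 probe was above the blanks on all 3 arrays (deposited values 5.26, 4.9 and 6.9), and the other on none. TMEM149, now named IGFLR1, the receptor for IGFL1 described on T cells, had deposited values of 25.2, 19.6 and 31.4. Its normalised difference to shScr was 0.23 and that to parental 0.17, so it missed 2-fold. The probe sequences were not used here, so signal shared between IGFL relatives was not tested.

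**Figure D1:**
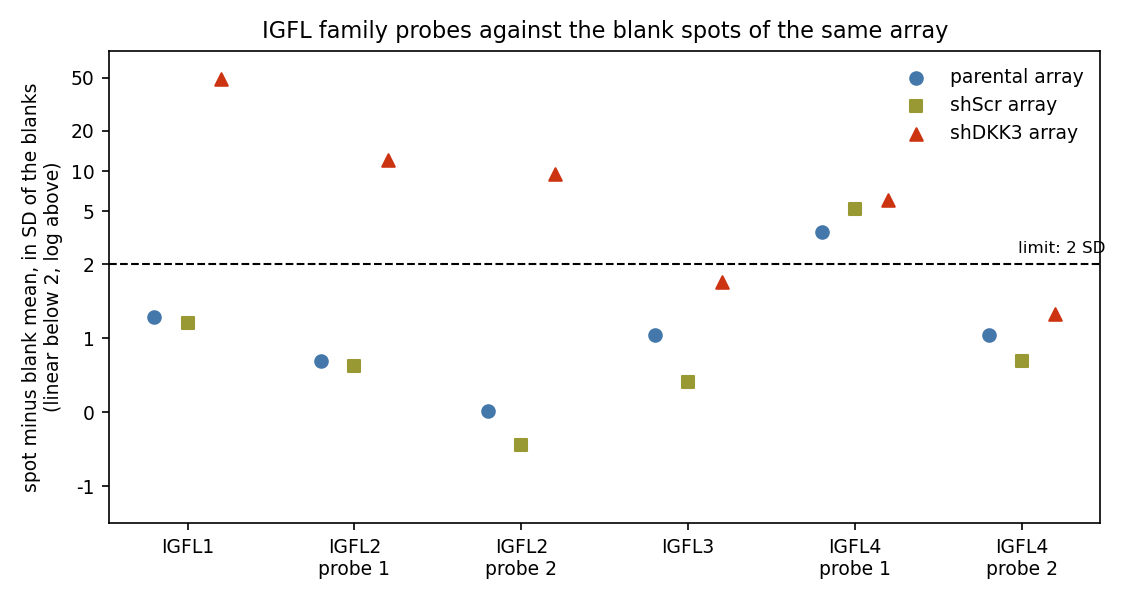
Distance of each IGFL family spot from the mean of the blank spots, in SD of the blanks (vertical axis, linear below 2 and logarithmic above), on the 3 arrays. Each point is 1 spot, and the dashed line is the limit of 2 SD. The IGFL1 point of the shDKK3 array lies at 49.0 and the 2 IGFL2 points at 12.2 and 9.50, with all their control points under the limit.

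Among genes detected in shDKK3 and in neither control, those whose pattern over the 3 arrays was nearest to IGFL1 were ZNF14, SPP1, IGFL2, ZNF462 and HLA-DOB. Likeness was the Euclidean distance between normalised log2 values after subtracting the mean of each gene, over 337 candidate genes. The distances ran from 0.57 for ZNF14 to 0.78 for HLA-DOB. IGFL1 itself spanned 1.27, so none of the 5 followed it closely. SPP1, which encodes osteopontin, had deposited values of 2.05, 1.2 and 20.2.

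Among the binding proteins, IGFBP6, IGFBP3 and IGFBP2 had their highest normalised signal on the shDKK3 array. IGFBP7 was bright on all arrays, and IGFBP5 was not above the blanks on any. IGFBP6, which prefers IGF2 as its ligand, had deposited values of 232 (parental), 128.5 (shScr) and 519 (shDKK3). The shDKK3 array was highest and the shScr array lowest. After normalisation IGFBP6 had a log2 difference of 1.59 between shDKK3 and shScr, and its deposited values a ratio of 4.04. Against parental the difference was 0.96, which is 1.95-fold and just short of the threshold. The shScr array lay below parental by -0.62, so part of the difference to shScr lies between the controls. The controls differed from each other with a robust SD of 0.42 (log2) over the 500 genes nearest in brightness. All 3 IGFBP6 differences exceeded it, although this spread is one between genes and not a replicate error. With plain subtraction of the blank mean the difference to parental was 1.08, and in the deposited values 1.16, both past 2-fold.

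IGFBP3, the main carrier of IGFs in serum and a target gene of several growth-restraining signals, followed the same order at smaller size. Its deposited values were 109.9, 60.4 and 162.1. The normalised difference to shScr was 1.01, right at the threshold, and that to parental 0.50, with -0.51 between the controls. The spread among genes of like brightness was 0.32. The difference to shScr missed 2-fold with scaling to the median (0.65), with scaling to the 75th percentile (0.97), with cyclic loess (0.86) and without the trend with gene length (0.96).

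IGFBP2, a carrier often found at high level in tumours, had deposited values of 60.1, 50.2 and 83.9. Its differences were 0.45 to shScr and 0.38 to parental, against a spread of 0.25, and it missed 2-fold. Its order over the arrays was again shScr, parental, shDKK3 from low to high. That order alone is common on these arrays. It was seen in 4135 of 14054 genes above the blanks on all 3 arrays (29.4%) after normalisation, and in 40.8% in the deposited values.

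IGFBP4, a binding protein that mostly restrains IGF action and is cut by the protease PAPPA, stood low on the shScr array. The deposited values were 19.1, 6.2 and 16.9, and the spots lay 22.7, 7.93 and 15.2 units above the limits. The shDKK3 value was 2.73 times the shScr value on the deposited scale, but the normalised difference was 0.27, since the offset shrinks dim probes. Against parental the difference was -0.05, and between the controls -0.32. IGFBP4 thus set the shScr array apart from both others. With plain subtraction of the blank mean its difference to shScr was 1.18 and that of shScr to parental -1.34, both past 2-fold.

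IGFBP5, which binds matrix and is active in bone and muscle, read 50.5, 56.9 and 46.6. These spots were inside the blanks, with 758, 429 and 1565 of the 2680 blank spots at least as bright, and the deposited table gives no value for it. IGFBP5 was therefore not compared.

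IGFBP7, a secreted protein with low affinity for IGFs that also binds insulin, had deposited values of 5000, 4236 and 6491. Its level was high on every array, and its direction depended on the scaling. The difference to shScr was -0.23 after quantile normalisation and -0.15 with cyclic loess. It was 0.02 with scaling to the median. The deposited values gave 0.62, and the 75th percentile as the scale gave 0.34. The median of all genes itself was 0.30 and 0.36 in these 2 settings. All normalised differences of IGFBP7 lay within the spread of 0.36.

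**Figure D2:**
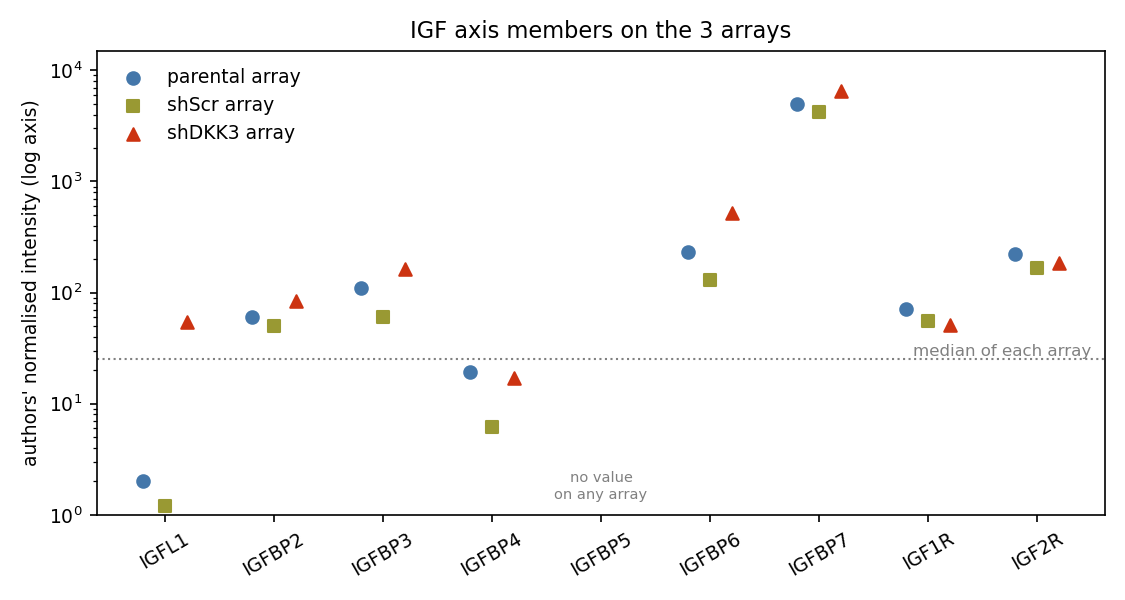
The authors' normalised intensity of the 9 IGF axis genes (vertical axis, logarithmic) on the parental, shScr and shDKK3 arrays. Each point is 1 probe on 1 array, and the dotted line marks the array median of 25. IGFL1 stands at 54.5 on the shDKK3 array against 2.0 and 1.2 on the controls, which were not above the blanks, IGFBP6 is highest on the shDKK3 array at 519, and both receptors lie close together on the 3 arrays.

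The receptors differed little between the arrays. IGF1R, the signalling receptor, had deposited values of 71.6, 55.4 and 50.6, with parental highest. Its normalised differences were -0.08 to shScr and -0.24 to parental, against a spread of 0.23. IGF2R had deposited values of 221.6, 166.7 and 185.7. Its differences were 0.08 to shScr and -0.17 to parental, within the spread of 0.37. The sign to shScr turned with scaling to the median (-0.33), with scaling to the 75th percentile (-0.01) and with cyclic loess (-0.06). Neither receptor reached 2-fold in any of the 3 comparisons after quantile normalisation. With 1 array each, this does not show that their levels were equal.

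Against shScr, 8 members could be compared, and 3 of them (IGFL1, IGFBP3 and IGFBP6) were at least 2-fold higher on the shDKK3 array. Of all 15148 genes in that comparison, 2.96% passed 2-fold upwards and 4.48% downwards. No member was at least 2-fold lower. The median difference of the compared members, with the chosen IGFL1 among them, was 0.36, beside 0.03 for all genes. The difference of IGFL1 in this count is also the one that chose it, and the count without it was 2 of the other members, IGFBP3 at the threshold and IGFBP6.

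Against parental, IGFL1 was the 1 member at least 2-fold higher, and 0 members were lower. Of all 14962 genes in that comparison, 0.862% passed 2-fold upwards and 3.04% downwards. The median difference of the members was 0.16, beside 0.03 for all genes. This median includes IGFL1, which was chosen for its signal on the shDKK3 array. Of the 8 members compared, 4 were above 0, IGFL1 among them, and 4 below. Over the 14962 genes, 8641 were above 0 and 6315 below. With IGFL1 set aside, no member reached 2-fold in this comparison. It shares the shDKK3 array with the comparison to shScr, so the 2 counts are not independent.

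Between the controls (shScr minus parental), 7 members were compared and none differed by 2-fold in either direction. Over 14850 genes, 0.404% were at least 2-fold higher on the shScr array and 0.983% lower. Of the 7 members, 6 were lower on the shScr array, as were 7241 of the 14850 genes compared. The median of the members was -0.25, beside a value near 0 for all genes. The largest of the members' differences were those of IGFBP6, IGFBP3 and IGFBP4. The lower signal on the shScr array therefore enters their differences to shScr.

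**Figure D3:**
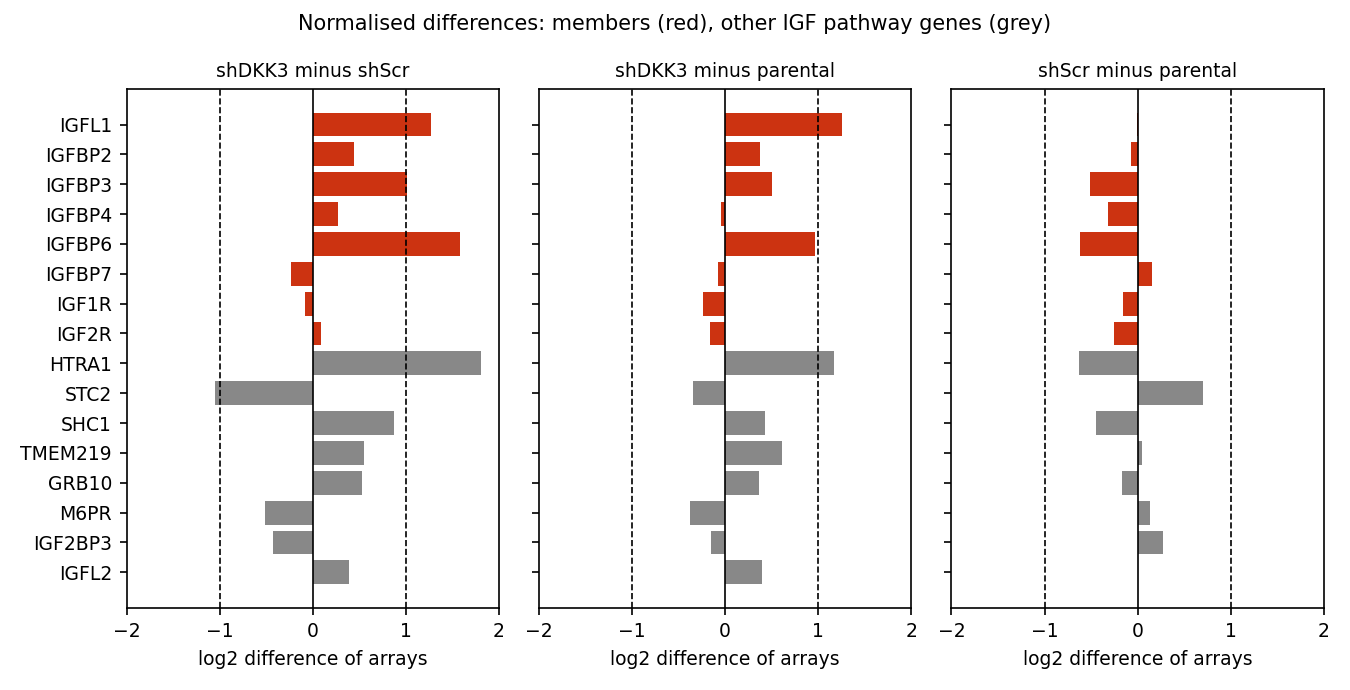
Log2 differences between arrays after normalisation (horizontal axes) for the members that were above the blanks on any array (red) and the 8 other IGF pathway genes with the largest differences (grey). Dashed lines mark 2-fold. Against shScr the bars of IGFBP6 (1.59) and HTRA1 (1.81) are the longest. Between the controls no bar reaches 2-fold.

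The genes with the pattern most like IGFBP6, the member with the widest range, were WNT10A, KRTAP4-8, KRT19, PHPT1 and CRIP1. They were taken from 14053 genes above the blanks on all arrays by the same distance, which was 0.03 to 0.05. WNT10A, a Wnt ligand of skin appendages, had deposited values of 106.5, 52.9 and 236.3. KRT19, a keratin of simple and basal epithelium, had values of 1187, 709 and 3089. With 3 arrays, such a distance rests on few values.

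Of 31 other IGF pathway genes with a probe, HTRA1 alone was at least 2-fold higher in shDKK3 than in each control after normalisation. STC2 alone was at least 2-fold lower in shDKK3 than in shScr. In the comparison with shScr 29 of them were compared, 1 higher and 1 lower. Of all genes 2.96% were higher and 4.48% lower, and 1 of 29 is near these shares. In that with parental 29 were compared, 1 higher and 0 lower, beside 0.862% and 3.04% of all genes. Between the controls 24 were compared and 0 passed in either direction, beside 0.404% and 0.983% of all genes. The median differences of the pathway genes were 0.07, 0.06 and near 0, beside 0.03, 0.03 and near 0 for all genes.

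HTRA1, a secreted serine protease that cuts IGF binding proteins, had deposited values of 402, 234 and 1098. Its signal in shDKK3 was 3.50 times that in shScr (log2 difference 1.81) and 2.26 times that in the parental sample (1.17). The shScr array was again lowest, by -0.63 against parental. Over 10 alternative settings the difference to shScr lay between 1.53 and 2.22, and that to parental between 1.05 and 1.45.

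STC2, a secreted glycoprotein that inhibits PAPPA, ran the other way. Its deposited values were 63.8, 117.6 and 38.9, with the shScr array highest. The difference to shScr was -1.05, that to parental -0.35, and that between the controls 0.70. When the second deposited column was taken as a local background, the first and the last had the opposite sign, at 1.38 and -1.41. PAPPA itself, named after its values were seen, had deposited values of 21.4, 22.3 and 29.5 and missed 2-fold.

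The ligands, also named after their values were seen, were measured beside the insulin receptor family. IGF1 had deposited values of 51.8, 51.7 and 63.0. One IGF2 probe had 18.6, 14.5 and 25.9, and the other IGF2 probe was not above the blanks on any array, so the probes disagree. INSR, the insulin receptor, and INSRR, its relative, exceeded the blanks in shDKK3 and in neither control, with deposited values of 2.6 and 5.8. These values were close to the limit, and INSR was the nearer of the pair. The INSR spot lay 2.51 units above the blank mean on the parental array and 2.62 on the shDKK3 array. The blank SD was 2.08 and 1.16 on these arrays, so the limit lay closer to the blanks on the shDKK3 array. At 49.5, INSR did not exceed the 3 SD limit of 50.4 there.

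The remaining named pathway genes missed 2-fold in every comparison after normalisation. In the deposited values the ratio of shDKK3 to shScr was 2.22 for SHC1 and 2.61 for GRB10, both past 2-fold. SHC1, an adaptor between receptors and Ras, had deposited values of 259, 167 and 371 and a difference of 0.88 to shScr. TMEM219, a receptor for IGFBP3, had 129, 127 and 211 and differences of 0.55 to shScr and 0.61 to parental. GRB10, an adaptor that dampens insulin and IGF1 signalling, had 24.7, 15.5 and 40.4 and a difference of 0.53 to shScr. M6PR, the smaller mannose 6-phosphate receptor that sorts enzymes beside IGF2R, was at -0.51 to shScr. IGF2BP3, an RNA-binding protein of IGF2 mRNA, was at -0.43.

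**Figure D4:**
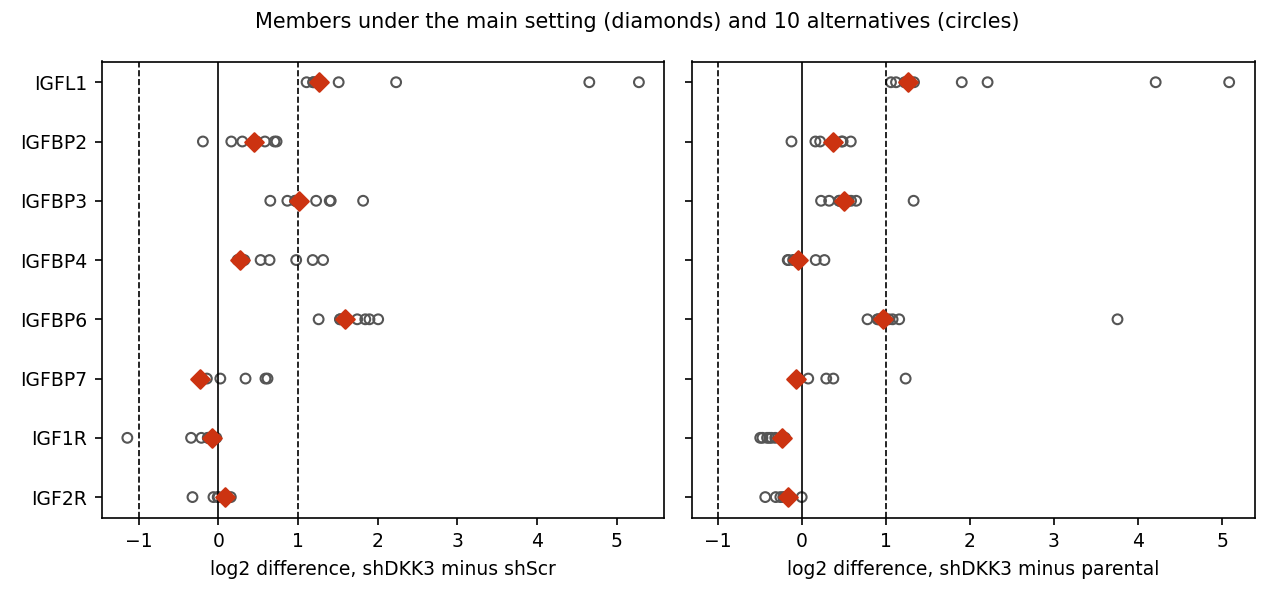
Log2 differences of 8 members under the main setting (diamonds) and under 10 alternatives (circles), shDKK3 minus shScr on the left and shDKK3 minus parental on the right. Dashed lines mark 2-fold. IGFL1 stays beyond 2-fold in both panels and reaches 5.28 and 5.08 with plain subtraction of the blank mean. IGFBP6 stays beyond 2-fold against shScr, and IGFBP2, IGFBP7 and IGF2R lie on both sides of 0 against shScr.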

How the data were processed

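RNA from 3 cultures was amplified with amino allyl nucleotides, labelled with Cy5 and put on 1 array each, per the labels' protocols. The scanner files hold intensity per spot, deposited by the authors as the spot median merged over scanner gains, per the file headers, with no background subtracted. The authors' deposited table of normalised intensity lies on straight lines of the spot median. From the values, it is the spot median less a blank mean (5% left out at each end), divided by 1.41, 1.83 and 1.04. The normalisation is not given in the sources used here. The scale is linear, without centring by gene and in the same direction as the scanner values.

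Spot medians were corrected by normexp (offset 50, all spots, limma 3.58.1 in R 4.3.3), then quantile normalised over 24451 gene probes. The steps were tested on simulated data with known changes placed in bright probes alone. How well changes of dim probes such as IGFL1 and IGFBP4 are recovered was not tested. Probes with a bad flag (9) were left out. A gene was its brightest probe and was compared if above the blanks on the brighter array. With 1 array per condition, conditions were not tested and p-values were not computed. The SD of log2 signal over 24 copies of a positive control spot was 0.08 to 0.14 within arrays, which is spot noise alone. Symbols came from the platform annotation, which names 20228 of these probes and leaves 4223 unnamed. Of 17614 symbols, 14990 are current in RefSeq GRCh38.p14.

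The members, the pathway list, the tests and the alternatives were chosen with earlier results of these data known. The text names all members, the pathway genes at least 2-fold different, then the largest differences up to 8, the IGFL and insulin receptor families, and the 5 genes nearest in pattern to IGFL1 and to the member, IGFL1 apart, with the widest range. The alternatives were other background corrections, scalings, filters, thresholds and detection limits, the deposited table as log2 of value + 1 with empty cells set to 0, and a running median over genomic length (1001 genes) removed. The blanks of the same block, the chromosomal neighbours and the IGFL2 probes taken singly were added after the data were seen.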

Additional observations from a re-analysis of the deposited data

How the results depend on the processing

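With each detection limit tried, IGFL1 exceeded the blanks in shDKK3 and in neither control, which is the pattern it was chosen for. Its bound over both controls was at least 21.2-fold with plain subtraction of the blank mean, 18.2-fold in the authors' deposited table, 4.34-fold with an offset of 16, 2.12-fold with scaling to the median and 2.03-fold with cyclic loess. Members at least 2-fold higher than shScr numbered 4 with plain subtraction or the deposited table. They numbered 2 with cyclic loess, median scaling, 75th-percentile scaling, detection on all arrays or the length trend removed, and 1 with a 3-fold threshold. Over all genes, 448 were higher than shScr in the main setting, 1432 with plain subtraction and 2020 with the deposited table. The all-gene count was 357 with cyclic loess, 224 with median scaling and 536 with 75th-percentile scaling. With detection on all arrays it was 447, with the length trend removed 404, and with a 3-fold threshold 58. Members higher than parental by the threshold numbered 2 with plain subtraction, an offset of 16, the deposited table or a 1.5-fold threshold. Over all genes the counts were 701, 248, 611 and 1022 in the same order, beside 129 in the main setting. Such members numbered 0 with a 3-fold threshold or detection on all 3 arrays, which leaves out IGFL1. The all-gene counts there were 13 and 127. IGFBP4 alone was at least 2-fold lower on shScr than on parental with plain subtraction or the deposited table. Over all genes 575 and 774 were, beside 146 in the main setting. With a 1.5-fold threshold IGFBP6 alone passed, beside 561 of all genes. When the second deposited column was subtracted, 4 members were at least 2-fold higher than parental. IGF1R alone was at least 2-fold lower than shScr, and 1 member was at least 2-fold higher on shScr than on parental. Over all genes the counts with that column were 1721, 2187 and 1540 in the same order. That column follows its own spot (r of at least 0.949 across gene probes), so these values rest on small remainders, and DKK3 then stood at a log2 difference of 3.94 to both controls, where remainders had been floored at 1. Of the single members' differences, 177 moved by less than the spread between the control arrays, and 53 by more. No member's difference past 2-fold in the main setting changed sign. Outside the members, that of STC2 to shScr did so with the second column. With the second column, IGFBP6 on shScr against parental went from -0.62 to 1.86, and IGFBP7 on shDKK3 against parental from -0.07 to 1.24. The mean over probes moved no member, since each has 1. No paired analysis was possible because each condition has 1 array. Dim probes such as IGFL1 and IGFBP4 are limited by their signal over background.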

Other observations

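The 5 nearest genes with a probe on each side of IGFL1 on chromosome 19 were taken by RefSeq order, after the data were seen. On one side these were IGFL3, IGFL2, IGFL4, PGLYRP1 and CCDC61. On the other they were HIF3A, PPP5C, CCDC8, PNMAL1 (now PNMA8A) and PNMAL2 (now PNMA8B). By the windows before their starts, IGFL2 (chr19:46147988-46148237) lay nearer to IGFL1 than IGFL3 did (chr19:46124689-46124938). The order of IGFL2 and IGFL3 thus depends on the start used. IGFL2 was the 1 of these 10 genes above the blanks on the shDKK3 array and on neither control. HIF3A, the next gene after IGFL1, had deposited values of 3.74, 2.1 and 1.3. Its spots exceeded the 2 SD limit on both controls by a small margin (55.3 against 54.3 and 59.5 against 59.1), but neither exceeded the 3 SD limits of 56.4 and 60.8. PPP5C, a serine/threonine phosphatase, was above the blanks on all arrays, and its normalised differences were -0.24 to shScr and 0.22 to parental.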
